A study of Rattus norvegicus with 18 samples.

Results

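Krt8, Krt18 and Krt19 encode keratins, and they were taken by gene name alone, as 3 of the 18923 rows of the deposited gene table and 4 of the 24143 rows of the isoform table. The tissue was nucleus pulposus (NP), the soft centre of the intervertebral disc, from rats aged 2, 10 and 20 months, and the labels name no strain and no treatment. Of the 18 libraries in the series, the 9 input libraries were used, 3 per age, which sample poly(A) RNA before any antibody step. The 9 libraries enriched for N6-methyladenosine were not analysed here. Whether the 3 libraries of an age came from separate or pooled animals is not stated, so every p-value measures the spread between these libraries, and this spread may be technical.

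Keratins are the intermediate filament proteins of epithelial cells, and they polymerise only as pairs of a type II and a type I chain. Krt8 is a type II chain, while Krt18 and Krt19 are type I chains that can each pair with it. Such filaments give cells mechanical strength and are anchored at the membrane by desmosomes and hemidesmosomes. NP cells descend from the embryonic notochord, and in the disc these keratins serve as markers of notochord-derived cells.

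Krt8 and Krt18 are neighbours in the genome. The tables place Krt8 (ENSRNOG00000009779) at chr7:143596511-143603803 on the minus strand and Krt18 (ENSRNOG00000047393) at chr7:143629455-143633131 on the plus strand. Their start sites point away from each other, 25652 bases apart, with 0 listed genes between them. Krt19 (ENSRNOG00000014233) lies on another chromosome, at chr10:88055841-88060561 on the minus strand. For these coordinates no build was given in the sources used here. The listed transcripts are of 9 exons and 1724 bases for Krt8, 7 exons and 1369 bases for Krt18, and 6 exons and 1383 bases for Krt19. A second Krt8 transcript is a single exon of 628 bases at chr7:143596514-143597141, inside the gene's 3′ end.

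The promoters of the Krt8 and Krt18 pair are shown because both genes fell from 2 to 10 months and rose from 10 to 20 months. The sequences are from RefSeq on the build GRCr8, a different coordinate system from that of the tables, and each runs from 250 bases before to 50 bases after the annotated start on the gene's own strand. The Krt8 window is chr7:135010290-135010589 on the minus strand and the Krt18 window chr7:135035918-135036217 on the plus strand. Of the 3 keratins, 2 had an entry, Krt8 and Krt18. Capitals mark the motifs searched on both strands, namely the core promoter motif TATAAA, the GC box GGGCGG, the AP-1 site TGANTCA and CAGGTG, an E-box bound by repressors of epithelial genes.
Krt8: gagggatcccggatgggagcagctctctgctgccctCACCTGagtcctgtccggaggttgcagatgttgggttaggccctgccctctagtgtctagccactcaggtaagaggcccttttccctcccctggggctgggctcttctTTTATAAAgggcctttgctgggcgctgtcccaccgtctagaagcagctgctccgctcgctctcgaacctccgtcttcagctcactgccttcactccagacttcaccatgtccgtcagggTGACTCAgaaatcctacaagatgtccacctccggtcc
Krt18: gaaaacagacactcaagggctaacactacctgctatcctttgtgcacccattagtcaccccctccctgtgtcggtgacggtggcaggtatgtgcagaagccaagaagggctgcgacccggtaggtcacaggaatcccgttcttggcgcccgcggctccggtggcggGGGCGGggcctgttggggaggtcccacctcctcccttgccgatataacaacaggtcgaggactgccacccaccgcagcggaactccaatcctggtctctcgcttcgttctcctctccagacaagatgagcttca
The Krt8 window holds TATAAA on the plus strand, starting at base 147 of the window, and on the minus strand, starting at base 145, in overlapping letters. TATAAA occurs in 14.2% of the 33469 rat promoter windows of the same length. In the same Krt8 window TGANTCA starts at base 264, beyond the annotated start (in 7.33% of windows), and CAGGTG starts at base 37 on the minus strand (in 18.8%). The plus-strand TATAAA lies at −104 relative to the annotated start. From that start on the Krt8 letters read atg, as in a start codon. Whether transcription begins there was not tested, and TGANTCA may lie in coding sequence. The Krt18 window holds GGGCGG at base 167, which 33.1% of windows have. Another motif, the T-box core TCACACCT read by the notochord factor Tbxt, matched neither window and was found in 1.10% of all windows. GC content was 59.0% for Krt8 and 60.3% for Krt18 against a median of 51.7%, and the CpG count was 10 and 17 against a median of 7. These matches describe letters and say nothing about binding.

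Notochordal identity was checked on genes other than the keratins. Tbxt, the notochord transcription factor, stood at 2369 ± 15.3, 2468 ± 15.7 and 2184 ± 85.8 FPKM (a read density corrected for transcript length and library depth; SD, n = 3) at 2, 10 and 20 months. Cd24, a surface protein of NP cells, stood at 5353 ± 208, 5074 ± 155 and 3865 ± 170 FPKM. The notochord signal gene Shh was below 0.1 FPKM in every library, as were A2m and Tek. Foxa1, Foxa2 and Pax1, of the same list of notochord and NP markers, were low too and were not tested. At 2, 10 and 20 months their means were 0.411, 0.230 and 0.116 FPKM for Foxa1. They were 0.127, 0.102 and 0.0614 FPKM for Foxa2, and 0.0950, 0.113 and 0.219 FPKM for Pax1. Of 21 such markers in the table, 15 had a mean of at least 1 FPKM. Epithelial cells also make these keratins. Of 7 simple epithelium markers in the table, Cdh1, Cldn3 and Cldn4 were below 0.1 FPKM in all 9 libraries, and the summed level of the 7 was 304 to 389.9 FPKM, nearly all of it from Krt7, described further on. Of 6 epidermis markers, Krt5 was below 0.1 FPKM in all libraries, while the sum was 162 to 353 FPKM, mostly from Sbsn, which encodes suprabasin (243 ± 1.52, 345 ± 4.21 and 205 ± 46.7 FPKM). The part of such cells in the keratin levels was not tested. Epcam, another epithelial marker, stood at 1.56 ± 0.300, 2.51 ± 0.653 and 0.941 ± 0.194 FPKM.

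The 20-month libraries stood apart from the rest. Their commonest read length was 141 bases against 132 in all libraries of 2 and 10 months. These lengths are stated by no label and were inferred from coverage times transcript length on thinly covered transcripts. Of their aligned bases 80.1 to 80.9% lay on listed transcripts, against 85.6 to 86.1% elsewhere. Ribosomal protein and mitochondrial genes took 14.0 to 14.5% of all FPKM in the 2-month libraries, 16.7 to 16.8% in those of 10 months and 20.1 to 20.6% in those of 20. The inferred read length thus followed age, and the 2 cannot be told apart in any comparison with 20 months. Aligned bases amounted to 3.53 to 5.04 gigabases per library, and across genes the log2 values of 2 replicates had a Pearson's r of 0.984 to 0.993.

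The 3 keratins were among the most abundant RNAs of the tissue at each age. Of the FPKM summed over all genes they made up 2.42 ± 0.0845% in tissue of 2 months, 1.74 ± 0.0160% at 10 and 2.08 ± 0.0537% at 20 (SD, n = 3 per age). Krt19 ranked 5th of all genes in the 2-month libraries, 8th at 10 months and 10th to 11th at 20 months. Krt8 ranked 7th, 9th and 5th to 6th. Krt18 ranked 41st to 42nd, 76th to 79th and 32nd to 39th. At 2 and 10 months the order of levels per length was Krt19, Krt8, Krt18, and at 20 months it was Krt8, Krt19, Krt18. In gene FPKM, neighbours in that order did not overlap at any age. In bulk tissue a lower level can mean fewer keratin-bearing cells or less RNA per cell, which cannot be told apart here.

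Krt8, the type II chain, was lowest at 10 months. In replicates 1, 2 and 3 it stood at 4219, 4199 and 4548 FPKM at 2 months, at 3225, 3241 and 3272 FPKM at 10 months, and at 4343, 4415 and 4573 FPKM at 20 months. All 10-month libraries lay below all others, while the ranges at 2 and 20 months overlapped. The means were 4322 ± 196, 3246 ± 23.9 and 4444 ± 117 FPKM.

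Krt18, the type I chain classically paired with Krt8, was also lowest at 10 months but highest at 20. It stood at 1229.4, 1229.2 and 1229.3 FPKM at 2 months, at 878, 885 and 895 FPKM at 10 months, and at 1494, 1648 and 1733 FPKM at 20 months. The 3 ages did not overlap, and the 20-month libraries spread most. The means were 1229 ± 0.10, 886 ± 8.14 and 1625 ± 121 FPKM.

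Krt19, a type I chain without the tail of other keratins, was the most abundant of the 3 in young tissue. It was highest at 2 months and lowest at 20. It stood at 5129, 5187 and 5488 FPKM at 2 months, at 3687, 3719 and 3780 FPKM at 10 months, and at 3412, 3350 and 3247 FPKM at 20 months. Here too the 3 ages did not overlap, and the step from 2 to 10 months was larger than that from 10 to 20. The means were 5268 ± 193, 3728 ± 47.1 and 3336 ± 83.1 FPKM.

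**Figure D1:**
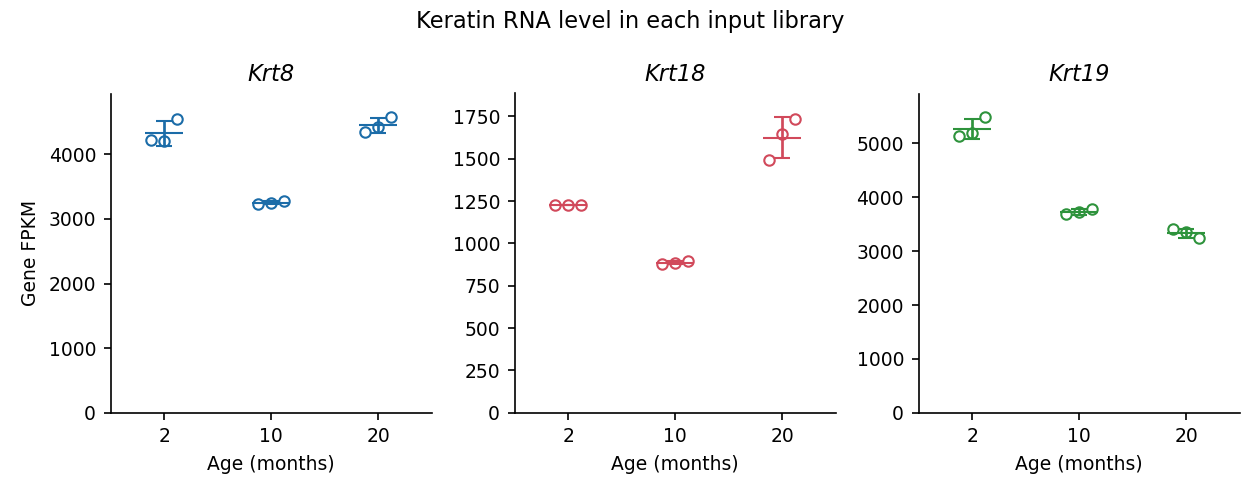
Gene FPKM of Krt8, Krt18 and Krt19 (vertical axis, linear from 0) by age in months (horizontal axis). Circles are the 3 input libraries per age, and bars give the mean ± SD; Krt8 and Krt18 are lowest at 10 months (3246 and 886 FPKM), and Krt19 is lowest at 20 months (3336 FPKM).

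From 2 to 10 months all 3 keratins fell. limma with Benjamini-Hochberg adjustment over the 11708 tested genes called 30.3% of genes in this comparison, 11.4% lower and 19.0% higher, and the libraries of these 2 ages did not overlap for 53.8% of genes. The changes are given on the log2(FPKM + 1) scale. Krt8 fell by 0.41 ± 0.04 (SE, adjusted p = 0.000119), a change of −24.9%. Krt18 fell by 0.47 ± 0.05 (adjusted p = 0.000194), a change of −27.9%. Krt19 fell by 0.50 ± 0.04 (adjusted p = 3.38e-05), a change of −29.2%. A lower log2 change than that of Krt8 was found for 3.81% of tested genes, against 2.71% for Krt18 and 2.45% for Krt19. The median change over all tested genes was 0.04.

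From 2 to 20 months the 3 keratins went different ways. In this comparison 68.2% of tested genes were called, 18.6% higher and 49.6% lower, and 70.4% had libraries that did not overlap, while the median of all tested genes was −0.20. Krt18 rose by 0.40 ± 0.05 on the log2 scale (limma adjusted p = 7.78e-05), or 32.2%. Krt19 fell by 0.66 ± 0.04 (adjusted p = 7.41e-07), a change of −36.7%. Krt8 differed by 0.04 ± 0.04 (adjusted p = 0.368), or 2.82%, which did not exceed the spread between replicates.

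From 10 to 20 months Krt8 and Krt18 rose and Krt19 fell. Of all tested genes 64.7% were called, 11.4% higher and 53.3% lower, and 67.9% did not overlap, and the median change was −0.23. Krt8 rose by 0.45 ± 0.04 on the log2 scale (limma adjusted p = 1.6e-05), or 36.9%, a change exceeded by 5.66% of tested genes. Krt18 rose by 0.87 ± 0.05 (adjusted p = 1.96e-06), or 83.4%, a change exceeded by 1.85% of genes. Krt19 fell by 0.16 ± 0.04 (adjusted p = 0.00352), a change of −10.5%, which is less than the fall of the median gene. Over the 3 ages together, limma's moderated F test called 75.4% of tested genes, with adjusted p = 1.4e-05 for Krt8, 2.32e-06 for Krt18 and 1.72e-06 for Krt19. The 3 comparisons share libraries, so they are not independent of each other.

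**Figure D2:**
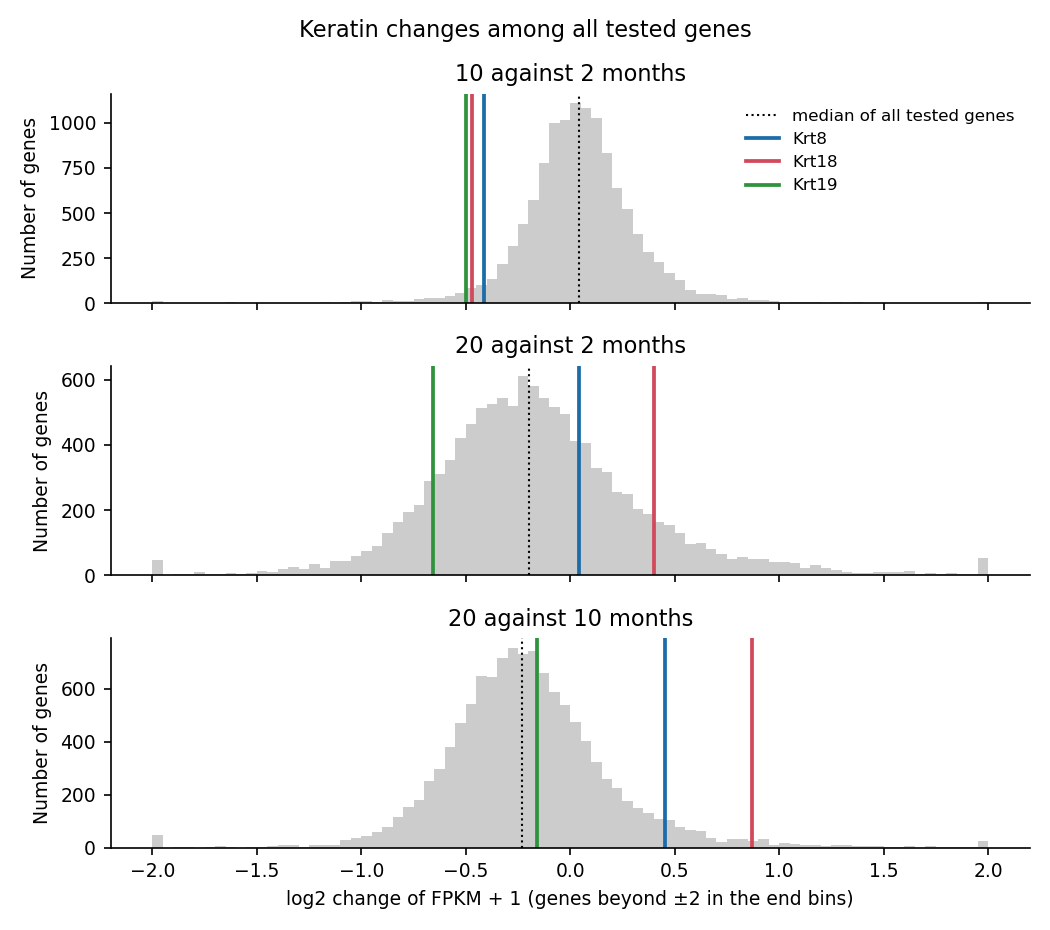
Distribution of the log2 change of FPKM + 1 (horizontal axis) over the 11708 tested genes (vertical axis, number of genes) for each comparison of ages, with changes beyond ±2 in the end bins. Coloured lines mark the keratins and the dotted line the median gene: at 10 against 2 months the keratins lie together between −0.50 and −0.41, and at 20 against 2 months they spread from −0.66 to 0.40.

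These directions rest in part on how libraries are scaled. Scaling each library by the median ratio over genes left the median of all genes near 0, shifting it by −0.03 for 10 against 2 months, 0.20 for 20 against 2 and 0.23 for 20 against 10. The split of higher against lower calls went from 2219 against 1332 to 1771 against 1703 for 10 against 2 months, from 2175 against 5811 to 3630 against 3668 for 20 against 2, and from 1339 against 6237 to 3125 against 3017 for 20 against 10. After this scaling Krt8 was higher at 20 than at 2 months by 0.27 (limma adjusted p = 0.000529), a difference not called on the deposited scale. Krt18 was higher by 0.63 (adjusted p = 1.29e-05) and Krt19 lower, at −0.43 (adjusted p = 1.2e-05). For 20 against 10 months Krt19 reversed to a rise of 0.11 (adjusted p = 0.0367). The fall of all 3 keratins from 2 to 10 months was −0.45, −0.51 and −0.54 for Krt8, Krt18 and Krt19 after this scaling. With quantile normalization, which keeps only ranks at these levels, the rise of Krt18 from 2 to 20 months shrank to 0.15 (adjusted p = 0.0168). With ribosomal protein and mitochondrial genes left out of the sum, Krt8 was higher at 20 than at 2 months by 0.13 (adjusted p = 0.0211).

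**Figure D3:**
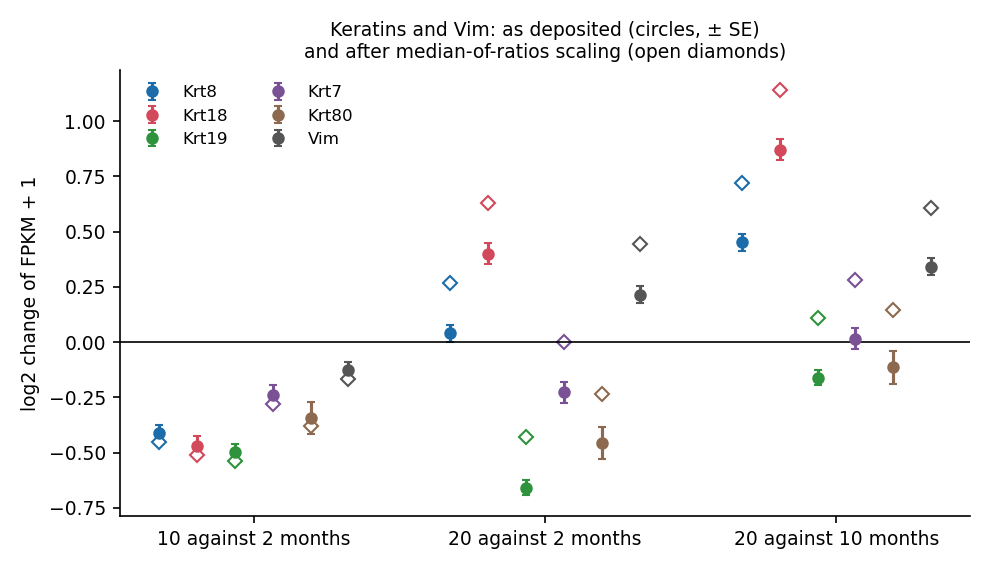
Log2 change of FPKM + 1 (vertical axis) for each comparison of ages (horizontal axis) in 5 keratins and Vim, as deposited (filled circles, bars ± SE) and after median-of-ratios scaling (open diamonds). Scaling moves every value upward at 20 months, and Krt19 crosses 0 at 20 against 10 months, from −0.16 to 0.11.

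Ratios of keratins within a library do not change when that library is multiplied by a factor, so they show how the make-up of the keratin RNA pool differed. Each ratio was tested over the 3 ages with an exact permutation test on its log2 values (1680 assignments of libraries to ages), and p-values were adjusted over the 5 ratios. For 2 ages of 3 libraries the smallest p an exact permutation test can give is 0.1.

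Krt18 relative to Krt19, the 2 type I chains, overlapped between 2 and 10 months and was 2.08-fold higher at 20 than at 2 months. Krt18/Krt19 stood at 0.240, 0.237 and 0.224 at 2 months, at 0.238, 0.238 and 0.237 at 10 months, and at 0.438, 0.492 and 0.534 at 20 months. All 20-month libraries lay above all others. The exact permutation p over the ages was 0.0286 (adjusted 0.0286). On the log2 scale the ratio was higher at 20 than at 2 months by 1.06 ± 0.09 (SE) and at 20 than at 10 months by 1.03 ± 0.08, while 10 and 2 months differed by 0.03 ± 0.03 (exact permutation p = 0.8). Krt18 accordingly held 18.9 ± 0.557%, 19.2 ± 0.0542% and 32.7 ± 2.20% of the FPKM of all type I keratins at 2, 10 and 20 months.

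Krt19 relative to its type II partner Krt8 was lower at each later age. Krt19/Krt8 stood at 1.22, 1.24 and 1.21 at 2 months, at 1.14, 1.15 and 1.16 at 10 months, and at 0.785, 0.759 and 0.710 at 20 months. The ages did not overlap, and the largest drop lay between 10 and 20 months. The exact permutation p over the ages was 0.00357, the smallest this test can give (adjusted 0.00595). The log2 ratio differed by −0.09 ± 0.01 between 2 and 10 months and by −0.61 ± 0.04 between 10 and 20 months.

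Krt18 relative to Krt8 was 0.291, 0.293 and 0.270 at 2 months, 0.272, 0.273 and 0.273 at 10 months, and 0.344, 0.373 and 0.379 at 20 months. The 20-month libraries lay above the rest, and those of 2 and 10 months overlapped. The exact permutation p over the ages was 0.0143 (adjusted 0.0179). The rise from 2 to 20 months was 0.36 ± 0.06 on the log2 scale. Between 2 and 10 months the ratio differed by −0.06 ± 0.04 (exact permutation p = 0.4).

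The type II chain gained on the sum of its type I partners, although not on Krt18 alone. Krt8/(Krt18+Krt19) stood at 0.664, 0.654 and 0.677 at 2 months, at 0.706, 0.704 and 0.700 at 10 months, and at 0.885, 0.883 and 0.918 at 20 months. The ages did not overlap (exact permutation p = 0.00357, adjusted 0.00595), and the log2 difference was 0.43 ± 0.02 between 2 and 20 months. Over all 10 type II and 13 type I keratin rows the ratio of type II to type I FPKM was 0.729 ± 0.0102, 0.779 ± 0.00229 and 0.966 ± 0.0212 at 2, 10 and 20 months, so that the 2 types were nearest to equal at 20 months. Krt8 held 91.2%, 90.2% and 92.6% of the type II FPKM, and Krt18 and Krt19 together held 99.95%, 99.91% and 99.89% of the type I FPKM.

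Vim encodes vimentin, the intermediate filament protein of mesenchymal cells, which assembles on its own. It ranked 2nd of all genes in all 9 libraries, at 8696 ± 50.1, 7962 ± 202 and 10091 ± 434 FPKM. The summed FPKM of the 3 keratins over that of Vim stood at 1.22, 1.23 and 1.29 at 2 months, at 0.985, 1.01 and 0.971 at 10 months, and at 0.944, 0.889 and 0.967 at 20 months. In gene FPKM, only the 2-month libraries had more keratin than vimentin RNA in all 3 replicates. The 10-month ratios lay close to 1, and the gene FPKM of Krt8 is lower than that of its main transcript. In the first 10-month library these were 3225 and 3640 FPKM. The side of 1 on which a ratio falls can thus depend on the Krt8 value used. The exact permutation p over the ages was 0.00357 (adjusted 0.00595), with a log2 difference of −0.33 ± 0.03 between 2 and 10 months, −0.42 ± 0.04 between 2 and 20 months and −0.08 ± 0.04 between 10 and 20 months.

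**Figure D4:**
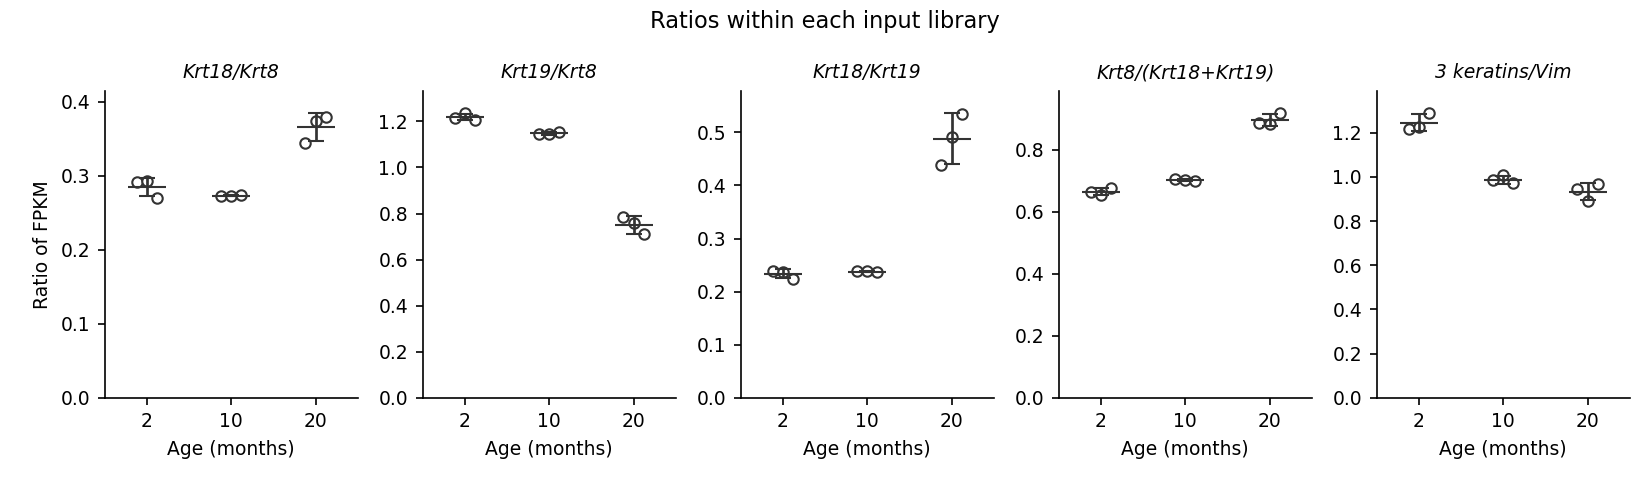
Ratios of FPKM within each library (vertical axes, linear from 0) by age in months (horizontal axes), with circles for the 3 libraries per age and bars for the mean ± SD. Krt18/Krt19 goes from 0.234 and 0.238 at 2 and 10 months to 0.488 at 20 months, and Krt19/Krt8 from 1.22 to 0.751.

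The other keratins of the table were far below these 3. Of 23 keratin rows, 6 had a mean of at least 1 FPKM, namely Krt8, Krt18, Krt19, Krt7, Krt80 and Krt14, and 6 were below 0.1 FPKM in every library. Krt7, a type II chain of simple epithelia, stood at 384 ± 4.43, 324 ± 6.91 and 328 ± 23.2 FPKM. It fell from 2 to 10 months (log2 −0.24 ± 0.05, limma adjusted p = 0.00552) and did not pass the test from 10 to 20 months (0.01 ± 0.05, adjusted p = 0.797). After median-of-ratios scaling its change from 10 to 20 months was 0.28 (adjusted p = 0.0026). Krt80, another type II chain, stood at 34.1 ± 1.11, 26.7 ± 1.32 and 24.7 ± 2.73 FPKM and fell from 2 to 10 months (log2 −0.34 ± 0.07, adjusted p = 0.00818) and from 2 to 20 months (−0.46 ± 0.07, adjusted p = 0.000489). Whether Krt7 and Krt8 differed in these changes was not tested.

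Krt14, the type I keratin of basal epidermis, matters because its row, at chr10:88055823-88122233, contains all 4721 bases of Krt19 on the same strand. Its FPKM were 0.124, 1.41 and 3.31 at 2 months, 2.49, 2.99 and 2.57 at 10 months and 6.63, 5.16 and 0.0517 at 20 months. Libraries of 1 age differed more than the ages, and no difference passed the test (limma moderated F adjusted p = 0.583). The Krt14 transcript whose lower coordinate, its 3′ end on the minus strand, lies at Krt19 reached 9.55 FPKM. The other Krt14 transcript reached at most 0.140. Reads of Krt19 and Krt14 could thus be split either way, but Krt14 amounted to at most 0.194% of the Krt19 level in any library. Copies of keratin genes elsewhere in the genome could also share reads, and no source used here says how such reads were treated.

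Nearly all keratin FPKM came from 1 listed transcript per gene. Krt18 and Krt19 have 1 listed transcript each. For Krt8, the 9-exon transcript held 99.5% of the isoform FPKM on average and the single-exon fragment 0.532%. The fragment's share was 0.436, 0.397 and 0.436% at 2 months, 0.571, 0.531 and 0.587% at 10 months, and 0.643, 0.581 and 0.618% at 20 months. It was lowest in the 2-month libraries, and such shares lay below the 10% needed for the test of isoform use. The gene-level FPKM of Krt8 is lower than that of its main transcript, which stood at 4764, 4742 and 5136 FPKM at 2 months. On that transcript scale Krt19 was still above Krt8 in each library of 2 and 10 months, by the smallest margin in the first 10-month library, with 3687 against 3640 FPKM. Between libraries, however, the 2 genes overlapped at both ages on that scale. The highest Krt8 value was 5136 FPKM at 2 months and 3693 at 10 months, against lowest Krt19 values of 5129 and 3687 FPKM.

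Each keratin rested on high read coverage. The authors' coverage column gave 15820 to 25296 reads per base on the main Krt8 transcript, 3818 to 8494 on Krt18 and 12040 to 26164 on Krt19. The share of all aligned bases follows from FPKM and transcript length, so it is not a second measure. For Krt8 it lay between 0.818 and 0.885% in the 2-month libraries, 0.628 and 0.637% in those of 10 months and 0.845 and 0.890% in those of 20. For Krt18 it was 0.168%, then 0.120 to 0.122%, then 0.205 to 0.237%. For Krt19 it was 0.709 to 0.759%, then 0.510 to 0.523%, then 0.449 to 0.472%.

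Of the genes that anchor keratin filaments to the membrane, more were called lower than higher at 10 and 20 months against 2. Among hemidesmosome genes, Itga6 and Cd151 reached the level for testing. Itgb4 (means 0.340, 0.317 and 0.188 FPKM) and Col17a1 (0.0648, 0.0669 and 0.0411 FPKM) did not. Of 17 listed desmosome and hemidesmosome genes in the table, 10 were tested. Of these, 7 were lower and 1 higher at 10 than at 2 months, where 11.4% of all tested genes were called lower and 19.0% higher, with a median log2 change of −0.28 against 0.04 for all tested genes. At 20 against 2 months 9 were lower, against 49.6% of all tested genes, with a median of −0.43 against −0.20. The remaining gene, Perp, a desmosomal membrane protein, was the one higher at 10 than at 2 months (log2 0.25, limma adjusted p = 0.0105). At 20 against 2 months it did not pass the test, at 91.4 ± 3.72 and 97.6 ± 7.84 FPKM (log2 0.09 ± 0.06, adjusted p = 0.19). After median-of-ratios scaling 7 were lower and 1 higher at 20 against 2 months, where 3668 of the 11708 tested genes were lower and 3630 higher. At 20 against 10 months 2 were higher and 8 lower as deposited, against 11.4% and 53.3% of all tested genes. That split became 4 and 4 after scaling, against 3125 higher and 3017 lower of the 11708 tested genes.

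Jup encodes plakoglobin, which links desmosomal cadherins to the keratin-binding plaque, and it stood at 36.1 ± 0.425, 29.3 ± 0.580 and 15.4 ± 0.689 FPKM. It fell by 1.18 ± 0.04 on the log2 scale from 2 to 20 months (limma adjusted p = 6.41e-08). Dsc2, a desmosomal cadherin, went from 102.6 ± 1.20 to 61.5 ± 2.93 FPKM at 10 months (log2 −0.73 ± 0.04, adjusted p = 1.79e-05) and 55.6 ± 2.04 FPKM at 20 months. Pkp1, a plaque protein with the highest mean level of the tested desmosome genes over the 9 libraries, went from 194 ± 2.78 to 160 ± 2.53 and 113 ± 7.07 FPKM (20 against 2 months −0.78 ± 0.04, adjusted p = 8.67e-07). These 3 genes fell from 2 to 10 and from 2 to 20 months under all 5 scalings run.

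**Figure D5:**
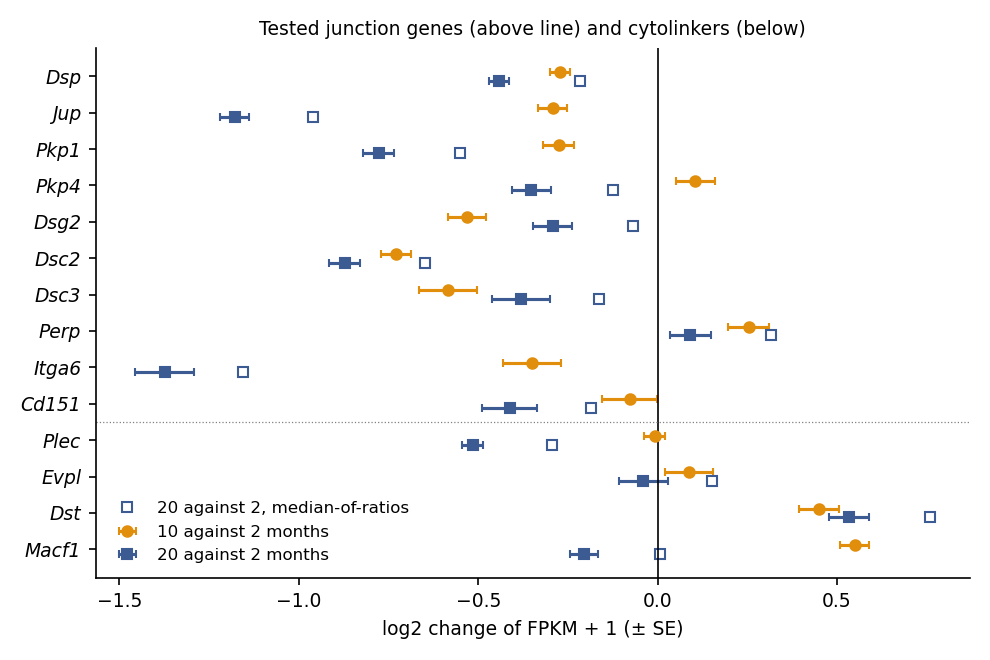
Log2 change of FPKM + 1 (horizontal axis, bars ± SE) of the tested desmosome and hemidesmosome genes (above the dotted line) and cytolinkers (below it), at 10 against 2 months (circles) and 20 against 2 months (filled squares; open squares after median-of-ratios scaling). Jup lies at −1.18 at 20 against 2 months and Dst at 0.53 on the other side of 0.

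The cytolinkers, large proteins that tie keratins to other filaments and to junctions, did not move together. Of 4 tested, 2 were higher at 10 than at 2 months, where 19.0% of all tested genes were called higher and 11.4% lower. At 20 against 2 months 1 was higher and 2 lower, where 18.6% of all tested genes were called higher and 49.6% lower. Dst, whose epithelial form anchors keratins at hemidesmosomes, rose from 87.7 ± 0.740 to 120 ± 0.915 and 128 ± 11.7 FPKM (20 against 2 months 0.53 ± 0.06, limma adjusted p = 3.1e-05). These values are for the whole gene, and the forms of Dst were not told apart. Plec, which encodes plectin, stood at 34.5 ± 0.162, 34.3 ± 0.297 and 23.8 ± 0.165 FPKM, lower at 20 than at 2 months by −0.52 ± 0.03 (adjusted p = 8.86e-07). Macf1, a linker of actin and microtubules, was highest at 10 months, at 13.0 ± 0.154, 19.4 ± 0.665 and 11.1 ± 0.158 FPKM. Its difference between 20 and 2 months, −0.21 as deposited, was 0.01 after median-of-ratios scaling.

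Among 13 tested genes of keratin-binding adaptors and chaperones, 1 was higher and 3 lower at 10 than at 2 months, and 1 was higher and 8 lower at 20 than at 2 months. Of all tested genes 19.0% were higher and 11.4% lower in the first comparison, and 18.6% higher and 49.6% lower in the second. After median-of-ratios scaling the second count was 4 higher and 6 lower, against 3630 and 3668 of the 11708 tested genes. Hspb1, a small heat shock protein that associates with keratin filaments, fell from 400.4 ± 10.0 to 282 ± 1.94 and 250 ± 10.7 FPKM (20 against 2 months −0.68 ± 0.04, limma adjusted p = 6.06e-07). Ywhae, the most abundant of the listed 14-3-3 genes, whose proteins bind phosphorylated Krt18, stood at 488 ± 8.67, 497 ± 14.4 and 385 ± 20.6 FPKM. Ywhag and Ywhab, of the same family, also fell from 2 to 20 months, by 0.57 ± 0.05 (adjusted p = 6.01e-06) and 0.58 ± 0.05 (adjusted p = 7.67e-06), and Ywhah and Ywhaq were lower too. Ywhaz did not pass the test (−0.08, adjusted p = 0.157). Sfn, the low-level 14-3-3 gene of epithelial cells and the one gene of this list that rose from 2 to 20 months, went from 0.742 ± 0.247 to 1.35 ± 0.276 FPKM (log2 0.43 ± 0.13, adjusted p = 0.0169), the direction of Krt18.

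Of the other intermediate filament genes 8 were tested, of which 3 were higher and 2 lower at 20 than at 2 months, against 18.6% and 49.6% of all tested genes. Vim fell slightly from 2 to 10 months (log2 −0.13 ± 0.04, limma adjusted p = 0.0341) and rose from 10 to 20 months (0.34 ± 0.04, adjusted p = 7.07e-05), as Krt8 and Krt18 did. As Vim held rank 2 in each library, quantile normalization gives it a change of 0 by construction. Des, the muscle-type filament gene, rose from 12.4 ± 0.374 to 21.0 ± 0.653 FPKM at 10 months (log2 0.72 ± 0.10, adjusted p = 0.00112). Lmnb2, a nuclear lamin gene, stood at 1.98 ± 0.124, 1.74 ± 0.0793 and 0.818 ± 0.180 FPKM.

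Other markers of notochord and NP cells were compared with the keratins. Of 15 tested, 8 were lower and 1 higher at 10 than at 2 months, with a median log2 change of −0.15 against 0.04 for all tested genes, of which 11.4% were lower and 19.0% higher. At 20 against 2 months 12 were lower and 1 higher, against 49.6% and 18.6% of all tested genes, with a median of −0.44 against −0.20. After median-of-ratios scaling 10 were lower and 4 higher, against 3668 and 3630 of the 11708 tested genes. Lgals3, which encodes galectin-3, stood at 2687 ± 25.0, 1786 ± 3.65 and 1859 ± 120 FPKM, a fall from 2 to 10 months of 0.59 ± 0.04 (limma adjusted p = 3.57e-05) that was of the size of those of the keratins. Tbxt did not pass the test between 2 and 10 months (0.06 ± 0.03, adjusted p = 0.205) and fell by 0.12 ± 0.03 from 2 to 20 months (adjusted p = 0.0105), a direction that turned to 0.11 after median-of-ratios scaling. Ca3, the most abundant of the list, stood at 9992 ± 137, 9507 ± 107 and 10028 ± 606 FPKM, and no change passed the test as deposited. After median-of-ratios scaling it was higher at 20 than at 2 months by 0.23 (adjusted p = 0.00175) and than at 10 months by 0.34 (adjusted p = 0.000282). Ncam1, a neural cell adhesion gene also found in notochordal cells, fell by 1.55 ± 0.08 from 2 to 20 months (adjusted p = 4.73e-07), and Cdh2, the cadherin of NP cells, by 0.52 ± 0.03 (adjusted p = 2.18e-06). Cytl1, which encodes a secreted protein of cartilage, was the one marker called higher against 2 months as deposited. It went from 3.36 ± 0.0484 to 17.6 ± 1.21 and 14.4 ± 3.22 FPKM. Its log2 change was 2.09 ± 0.13 at 10 months (adjusted p = 2.3e-05) and 1.8 ± 0.13 at 20 months (adjusted p = 3.22e-06) against 2 months. At 20 against 10 months 1 marker was higher and 10 lower, against 11.4% and 53.3% of all tested genes. The higher one was Basp1, at 23.9 ± 1.03, 20.8 ± 0.775 and 24.4 ± 1.18 FPKM (log2 0.22 ± 0.05, adjusted p = 0.00384).

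Summed levels of markers of other cell types differed between the ages in several lists. The summed FPKM of 6 red blood cell genes lay between 82.9 and 93.2 in the 2-month libraries, 9.57 and 10.6 in those of 10 months and 36.6 and 42.5 in those of 20, lowest at 10 months as were Krt8 and Krt18. Skeletal muscle genes summed to 22.5 to 24.0, 14.9 to 16.8 and 3.75 to 202 FPKM, although no gene of that list was called. Annulus and tendon genes summed to 16.0 to 17.8, 15.5 to 16.1 and 23.3 to 83.1 FPKM, and endplate chondrocyte genes to 3.08 to 3.27, 3.93 to 4.51 and 5.05 to 24.4 FPKM. All 3 of these sums were highest in the third 20-month library. The annulus and tendon list had members that went opposite ways. Of its 5 tested genes, 2 were higher and 2 lower at 20 than at 2 months. Dcn and Prg4 changed by 3.19 and 1.79 on the log2 scale (limma adjusted p = 0.00022 and 1.05e-05). Col1a1 and Scx changed by −1.84 and −0.72 (adjusted p = 0.00159 and 0.000416). Dcn varied widely between the 20-month libraries, at 33.3 ± 28.8 FPKM. Bone genes summed to 16.3 to 17.1, 10.1 to 11.3 and 5.13 to 6.95 FPKM. Most of this came from Acp5, an osteoclast gene, at 15.2 ± 0.492, 8.73 ± 0.509 and 4.94 ± 0.542 FPKM. Acp5 changed by −1.45 ± 0.07 on the log2 scale from 2 to 20 months (limma adjusted p = 4.73e-07). Ctsk, the other tested gene of that list, stood at 1.18, 1.60 and 1.13 FPKM and was not called. The rest of the bone list was low and not tested. The part of these cells in the keratin results was not tested. Without the third 20-month library the changes from 2 to 20 months were 0.02 for Krt8, 0.35 for Krt18 and −0.64 for Krt19, close to those with it. Macrophage genes summed to 19.2 to 23.1 FPKM over the 9 libraries, with members that went opposite ways. Csf1r, at 7.04 ± 0.156, 12.0 ± 0.141 and 11.3 ± 1.36 FPKM, was higher at 20 than at 2 months (limma adjusted p = 6.68e-05). Cd68, at 4.32 ± 0.254, 4.23 ± 0.540 and 2.23 ± 0.771 FPKM, was lower (adjusted p = 0.00283). Cd14, the remaining tested gene, did not pass the test as deposited. Ptprc and Adgre1 were below 0.1 FPKM in all 9 libraries. Endothelial genes summed to at most 0.831 FPKM.

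Genes with the most similar profiles were ranked by the root mean square difference between centred log2(FPKM + 1) values over the 9 libraries, among 7751 genes with a mean of at least 5 FPKM. This is a description over libraries that share depth, read length and age group. Nearest to Krt8 was Acan, which encodes the disc proteoglycan aggrecan, at 1202 ± 15.3, 871 ± 12.0 and 1148 ± 95.4 FPKM (difference 0.068). Next came Bcl2l1, a survival gene (0.069), Ctsl, a lysosomal protease gene (0.090), the transcription factor gene Klf6 (0.098) and the clock repressor gene Nr1d1 (0.10). The median gene differed from Krt8 by 0.33, Vim by 0.13 (31st), Krt18 by 0.19 (323rd) and Krt19 by 0.31 (3413th).

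Nearest to Krt18 were Gadd45g, a stress-induced growth arrest gene (0.074, at 8.05 ± 0.103, 5.22 ± 0.278 and 11.7 ± 1.12 FPKM), the cell cycle regulator Rgcc (0.089) and the histone gene H3f3a (0.095). They were followed by Tsc22d3, a glucocorticoid-induced gene (0.11), and Id4, an inhibitor of helix-loop-helix factors (0.12). Krt8 was 30th (0.19) and Krt19 4507th (0.50), behind the median gene (0.47). Nearest to Krt19 were Asap1, a regulator of Arf proteins (0.050, at 41.2 ± 0.208, 29.9 ± 1.06 and 27.0 ± 0.505 FPKM), Ctnnd2, a catenin gene (0.051), and the chaperone gene Hspb1 (0.053). Smoc1, a matrix protein gene (0.062), and Tusc3 (0.064) came next, while Krt8 was 4870th (0.31) and Krt18 6935th (0.50) of the 7751 genes, both behind the median gene (0.28).

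The nearest listed neighbours of the keratins were much less abundant. On the Krt8 and Krt18 side of chromosome 7, Krt79 and Krt78 were near 0, with means of 0.185 and 0.579 FPKM. Beyond Krt18, the translation factor gene Eif4b was higher at each later age, at 177 ± 3.58, 227 ± 1.65 and 273 ± 13.5 FPKM (10 against 2 months log2 0.36 ± 0.04, limma adjusted p = 0.000224), opposite to Krt8 and Krt18 between 2 and 10 months. Tns2, a focal adhesion gene, stood at 93.6 ± 1.55, 90.2 ± 2.09 and 55.5 ± 5.45 FPKM. Next to Krt19 on chromosome 10, the type I keratins Krt13 and Krt15 had means of 0.374 and 0.248 FPKM, so that Krt19 was the only abundant keratin among its nearest listed neighbours. On the other side lie 3 rows inside the span of the Krt14 row. An uncharacterised gene there (ENSRNOG00000051343) stood at 1.5 ± 0.437, 0.838 ± 0.181 and 0.629 ± 0.187 FPKM and was lower at 20 than at 2 months (log2 −0.61 ± 0.15, limma adjusted p = 0.00511), in the direction of Krt19.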

How the data were processed

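Gene and isoform abundance was deposited by the authors as FPKM, with read coverage per base in the isoform table, per the file headers. Tools listed in the submitters' processing notes, with no role, are StringTie 1.3.4d, HISAT2 2.0.4, cutadapt 1.9, edgeR and DESeq2; no source used here gives strand, build or annotation. No counts are in the tables, so gigabases came from the constant FPKM over coverage in each library. The keratins, gene lists and tests were chosen with earlier results of these data known.

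The 11708 genes that reached an FPKM of 1 in 3 or more of 9 libraries entered limma 3.58.1 (R 4.3.3, empirical Bayes with trend) on log2(FPKM + 1), which understates changes of low genes, in 1 fit over the ages with Benjamini-Hochberg adjustment and calls at an adjusted p under 0.05. In simulated data for 10 against 2 months with 11708 genes and normal noise, changes were given only to genes of higher level, 100 per size. Of these, 84% of 0.5 log2 changes and 98% of 1 log2 changes were recovered. Recovery for low genes was not measured. All log2 changes and adjusted p-values of genes are from limma. Ratios were tested with exact permutation tests. Named genes were the keratins of at least 1 FPKM, Vim, up to 3 called members of each list with the smallest adjusted p and its most abundant member, the 5 nearest profiles and the nearest 3 listed neighbours. Tbxt, Cd24, Foxa1, Foxa2, Pax1, Lgals3, Perp, Sfn, Ywhah, Ywhaq and Ywhaz were chosen after their values were seen. So were Basp1, Itgb4, Col17a1, Itga6, Cd151, Dsg2, Dsc3, Scx, Ctsk and Cd14, and less telling genes were left out. Alternatives changed the pseudocount, filter, scaling, ages fitted, weights, block and libraries.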

Additional observations from a re-analysis of the deposited data

How the results depend on the processing

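Of 253 gene-level values over all alternatives, 249 kept their direction and their side of the threshold. The exceptions all concern scaling. Krt8 at 20 against 2 months passed the test at 0.27 with median-of-ratios scaling, 0.20 with quantile normalization and 0.13 with a fixed sum without ribosomal protein and mitochondrial genes. Krt19 at 20 against 10 months reversed to 0.11 with median-of-ratios scaling. The cause of these changes was not tested. Leaving out each of the 9 libraries changed no call. Krt18 at 20 against 2 months then ranged from 0.35 to 0.46, Krt19 at 20 against 10 months from −0.18 to −0.14, and Krt8 at 20 against 2 months from 0.02 to 0.08.

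Same-numbered libraries of different ages did not deviate together (correlations of −0.040 to 0.049 across genes), so the numbers do not pair them. With the replicate block, limma gave the same verdict for all 9 comparisons of a keratin between ages, of which Krt8 at 20 against 2 months is the one not called. Permuting within replicate numbers, where 216 assignments allow a smallest p of 0.0278, gave adjusted p-values of 0.0694 for Krt18/Krt8 and 0.0833 for Krt18/Krt19, so these 2 ratios no longer passed the threshold of 0.05. Over all type II and type I keratin rows, an alternative chosen after seeing the data like the sum of Krt14 and Krt19, the log2 ratio differed by 0.31 between 10 and 20 months. All 63 counts of called genes stayed within 1.5 times. The test of isoform use and its alternatives were not run, as no keratin isoform held a share of 10 to 90%. The number of libraries, 3 per age, limits the ratio tests between 2 ages.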

Other observations

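Krt18 had the smallest spread of all 11708 tested genes at 2 months. Its coefficient of variation over the 3 libraries was 0.00814%, with 0 tested genes below it, against a median of 4.80% over tested genes. At 10 and 20 months it was 0.918% and 7.44%, where 4.47% and 42.9% of tested genes had a smaller one. Krt8 and Krt19 had coefficients of 4.53% and 3.66% at 2 months, near the median, so the narrow spread was not shared by the other keratins of the same libraries. At 10 months all 3 keratins varied little, with 0.735% for Krt8 and 1.26% for Krt19 against a median of 4.82%.

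LOC108352134, an uncharacterised gene near Krt19 and inside the span of the Krt14 row, moved opposite to Krt19 from 2 to 20 months. It stood at 3.56 ± 0.595, 3.26 ± 0.677 and 10.2 ± 1.53 FPKM at 2, 10 and 20 months and rose by 1.29 ± 0.15 on the log2 scale from 2 to 20 months (limma adjusted p = 6.18e-05). Sbsn, the suprabasin gene, was highest at the age when Krt8 and Krt18 were lowest, with a rise of 0.50 ± 0.13 from 2 to 10 months (adjusted p = 0.0185).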
